A study of Homo sapiens with 8 samples.

Results

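Intergenic single-exon transcripts are RNA molecules that were read as 1 unspliced block outside the reference genes. They were taken from the authors' combined transcript assembly as the transcripts with class code u, the code for a transcript in no reference gene, and exactly 1 exon. The rule found 1164 of 98350 assembled transcripts, and 1154 of them had reads in a combined count table of 96614 transcripts. The libraries were long-read RNA-seq libraries of H1, a widely used embryonic stem cell line, from undifferentiated pluripotent cells (hPSC) and from cells cultured towards ectoderm, endoderm or mesoderm, with 2 repeats of each. The hPSC were kept in mTeSR1 medium. Ectoderm cultures received 15% KOSR with the inhibitors A83-01, PNU-74654 and Dorsomorphin at 2 µM each. Endoderm cultures received Activin A at 100 ng/ml, WNT3A at 50 (written in nM/ml in the labels) and 0.5% FBS. Mesoderm cultures received VEGF and BMP4 at 100 ng/ml, bFGF at 10 ng/ml, 0.5% FBS and, for the first 24 h, Activin A at 100 ng/ml. All layers were collected after 5 days. All 4 groups are 1 cell line, and the labels do not say whether the repeats were separate cultures, so the p-values measure only the spread between these libraries.

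Most of the human genome outside genes is silent or transcribed at a low level, and its transcripts come from several sources. Promoters often fire in both directions, which gives short RNAs on the strand opposite to the gene. RNA polymerase can run on past the end of a gene. Copies of transposable elements, such as the endogenous retrovirus family HERVH, carry promoters of their own, and several of them are active in human pluripotent cells. A single-exon transcript can also be a piece of a longer RNA, or of an intron of a gene that the annotation does not hold. No repeat annotation or genome sequence was used here, so the members are described by place, length and counts, and none was assigned to a repeat family.

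The members that begin in a promoter of a gene on the other strand are among those whose start can be shown in sequence. The windows printed here are promoters of 5 protein-coding genes from RefSeq on GRCh38.p14, chosen after the values were seen: the 3 protein-coding genes with the most counts in a member that starts inside the gene's RefSeq window, and 2 genes whose member was read mainly in 1 layer. Each runs 5′ to 3′ along the gene's strand from 250 bases before its start to 50 bases after it, and capitals mark the bases that the member covers on the other strand. LSM8, at chr7:118183914-118184213 on the plus strand, encodes a subunit of the complex that binds U6 RNA. ZNF79, at chr9:127424132-127424431 on the plus strand, encodes a zinc finger protein. DOCK1, at chr10:126905178-126905477 on the plus strand, encodes an exchange factor for the small GTPase RAC1. SFRP2, at chr4:153789034-153789333 on the minus strand, encodes a secreted modulator of WNT signalling. SOWAHB, at chr4:76898095-76898394 on the minus strand, encodes an ankyrin repeat protein.
LSM8: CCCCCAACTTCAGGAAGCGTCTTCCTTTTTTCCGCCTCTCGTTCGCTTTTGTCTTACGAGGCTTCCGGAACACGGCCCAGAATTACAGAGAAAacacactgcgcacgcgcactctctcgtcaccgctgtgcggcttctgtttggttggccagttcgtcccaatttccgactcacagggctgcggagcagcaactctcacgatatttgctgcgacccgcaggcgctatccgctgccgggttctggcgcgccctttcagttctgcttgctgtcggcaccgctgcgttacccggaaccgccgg
ZNF79: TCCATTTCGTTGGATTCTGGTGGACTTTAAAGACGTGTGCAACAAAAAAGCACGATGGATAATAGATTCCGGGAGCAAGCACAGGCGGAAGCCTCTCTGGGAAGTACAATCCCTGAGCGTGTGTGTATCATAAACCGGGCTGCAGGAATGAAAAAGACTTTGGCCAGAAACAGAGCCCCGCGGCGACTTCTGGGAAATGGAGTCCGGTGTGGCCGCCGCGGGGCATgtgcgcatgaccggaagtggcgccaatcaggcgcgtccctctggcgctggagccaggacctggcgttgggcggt
DOCK1: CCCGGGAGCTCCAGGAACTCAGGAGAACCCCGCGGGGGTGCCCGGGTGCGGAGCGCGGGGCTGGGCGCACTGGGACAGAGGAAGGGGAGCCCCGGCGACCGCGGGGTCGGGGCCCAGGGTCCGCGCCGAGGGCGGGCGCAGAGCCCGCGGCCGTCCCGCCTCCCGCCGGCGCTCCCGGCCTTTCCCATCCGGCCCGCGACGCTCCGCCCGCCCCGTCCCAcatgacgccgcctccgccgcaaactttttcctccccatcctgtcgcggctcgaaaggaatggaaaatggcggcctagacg
SFRP2: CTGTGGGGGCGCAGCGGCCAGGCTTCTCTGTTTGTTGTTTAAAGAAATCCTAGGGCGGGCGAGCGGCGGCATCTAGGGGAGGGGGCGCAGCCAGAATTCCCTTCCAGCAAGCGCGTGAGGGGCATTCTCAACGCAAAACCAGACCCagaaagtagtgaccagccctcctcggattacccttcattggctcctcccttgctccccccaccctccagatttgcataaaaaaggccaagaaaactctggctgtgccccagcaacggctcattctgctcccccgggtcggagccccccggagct
SOWAHB: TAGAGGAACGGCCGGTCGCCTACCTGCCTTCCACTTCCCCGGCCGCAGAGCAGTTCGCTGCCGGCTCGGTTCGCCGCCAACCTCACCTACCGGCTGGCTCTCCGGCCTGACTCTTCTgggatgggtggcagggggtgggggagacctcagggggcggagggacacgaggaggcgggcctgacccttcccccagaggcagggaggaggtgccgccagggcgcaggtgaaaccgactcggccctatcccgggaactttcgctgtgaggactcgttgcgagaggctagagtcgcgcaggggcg

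The member starts lay 158 bases before the RefSeq start of LSM8, 25 before that of ZNF79, 31 before that of DOCK1, 105 before that of SFRP2 and 134 before that of SOWAHB. The capitals therefore cover from 93 bases of the window (LSM8) to 226 bases (ZNF79). The remaining lower case bases of each window hold no part of the member.

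The members were spread over the genome and were mostly rare. They fell into 1096 loci of the assembly, of which 1038 held 1 member, and 568 members were on the plus strand and 596 on the minus strand. Chromosome 2 held 102 members, X held 89 and chromosome 6 held 78. Their median length was 4352.5 nt (range 209 to 31605), against 3326 nt for 599 spliced intergenic transcripts and 1568 nt for 1846 single-exon transcripts that match the reference. The median distance to a GENCODE 29 gene was 9771.5 bases. By place, 542 members lay 5 to 50 kb from a gene and 226 lay further away. Another 116 started within 1 kb of a gene start on the opposite strand, 85 lay within 5 kb after a gene on the same strand, and 162 lay within 5 kb of a gene in other ways. There were 21 members on 2 unplaced scaffolds of ribosomal DNA, 10 on other scaffolds and 2 in the control region of mitochondrial DNA. On either strand, 282 members (24.2%) overlapped the span of a gene that RefSeq lists, and 17 overlapped the span of a GENCODE 29 gene. The median member had 9 counts over the 8 libraries, and 525 had 10 or more. The assembly of 1 group alone held 1089 members, and 3 members were in the assemblies of all 4.

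The libraries had 519306 and 562042 reads in hPSC, 1180888 and 967206 in ectoderm cells, 585558 and 586183 in endoderm, and 531106 and 503840 in mesoderm cells. A count of 0 therefore allowed up to 2.54 to 5.95 CPM (counts divided by the library total and scaled up), and such limits cover counting error only. The summed level of 13 pluripotency markers was 4868 to 5174 CPM in hPSC, 2018 to 2520 in ectoderm, 1919 to 2234 in endoderm and 535 to 538 in mesoderm. The genes of this list differed. POU5F1 had 716 and 626 CPM in hPSC and 4.23 and 16.5 in ectoderm, where NANOG had 2.54 and 0. LIN28A went the other way, with 811 and 612 CPM in hPSC and 879 and 1280 in ectoderm, and held much of the ectoderm sum. LIN28B did so too, with 32.7 and 32.0 CPM in hPSC and 198 and 243 in ectoderm. SOX2 differed between the hPSC repeats, with 137 and 8.90 CPM, and had 152 and 133 in ectoderm. Summed markers of the labelled layer were highest in that layer for ectoderm (801 to 1058 CPM over 9 genes, SOX1 at 0 reads) and endoderm (4224 to 4409 CPM over 10 genes). OTX2, on the ectoderm list, had 153 and 134 CPM in ectoderm and 412 and 406 in endoderm. In the mesoderm libraries the 11 mesoderm markers reached 1435 to 1491 CPM, MESP1 had no reads, and TBXT had 1 and 0 counts. HAND1, MSX2, TBX3 and BMP4 held most of that sum. KDR ran against the label, with 110 and 78.3 CPM in hPSC and 1.88 and 1.98 in mesoderm. MIXL1 had 14 and 23 counts in endoderm and none in mesoderm. The 10 markers of amnion and trophoblast reached 6921 to 7580 CPM there, against 19.6 to 85.5 CPM in the other 6 libraries, so the mesoderm values are those of cells with this profile. Their part in the results was not tested. Fewer cells of a type and less RNA per cell cannot be told apart in these libraries.

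Intergenic single-exon transcripts took the largest share of the reads in hPSC. The share was 0.515% and 0.644% in the hPSC libraries, 0.357% and 0.378% in ectoderm cells, 0.224% and 0.246% in endoderm, and 0.187% and 0.213% in mesoderm. The means were 0.580% ± 0.0912, 0.367% ± 0.0155, 0.235% ± 0.0153 and 0.200% ± 0.0186 (SD, n = 2). The hPSC libraries did not overlap with the other 6, and repeat 2 of hPSC was higher than repeat 1. The hPSC reads sat in few members. The 4 members with the most reads held 44.1% and 50.0% of the member counts in hPSC, 4.23% and 4.48% in ectoderm cells, 13.3% and 18.8% in endoderm and 5.85% and 6.15% in mesoderm. Spliced intergenic transcripts also took their largest share in hPSC, with 0.517% and 0.568% of the reads. Their share was 0.0951% and 0.0987% in ectoderm cells, 0.150% and 0.149% in endoderm, and 0.0642% and 0.0691% in mesoderm. No test was made of these sums.

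The groups used members of different length. Members of 5 to 6.5 kb summed to 2214 and 2911 CPM in hPSC, 482 and 517 in ectoderm cells, 285 and 258 in endoderm, and 292 and 320 in mesoderm. Members over 10 kb summed to 312 and 295 CPM in hPSC, 1230 and 1341 in ectoderm cells, 319 and 261 in endoderm, and 446 and 542 in mesoderm. Members under 1 kb summed to 310 and 553 CPM in hPSC, 199 and 188 in ectoderm cells, 502 and 742 in endoderm, and 113 and 135 in mesoderm. In the 5 to 6.5 kb class hPSC lay above all other libraries, in the class over 10 kb ectoderm did, and in the shortest class the hPSC and endoderm libraries overlapped.

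**Figure D1:**
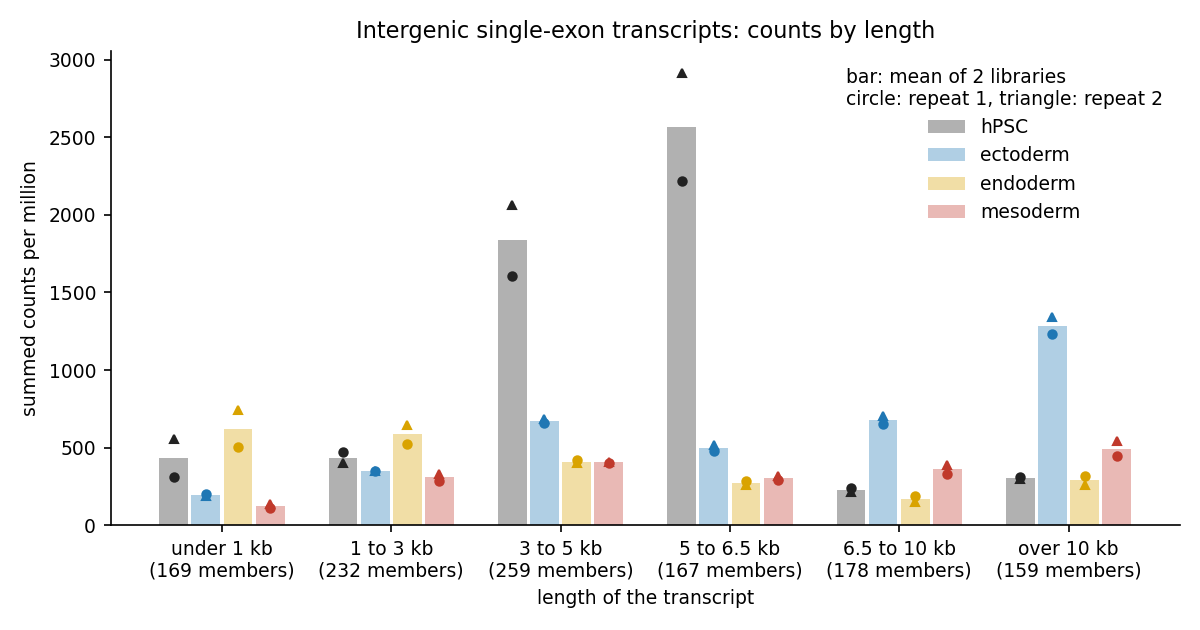
Summed CPM (vertical axis) of the intergenic single-exon transcripts in 6 classes of length (horizontal axis), with a bar for the mean of each group and a point for each of its 2 libraries. The hPSC libraries stand above the rest between 3 and 6.5 kb, and the ectoderm libraries above 6.5 kb.

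The mean length of a member, weighted by its reads, was 5096 and 4942 nt in hPSC, 8959 and 9129 nt in ectoderm cells, 4649 and 3904 nt in endoderm, and 7377 and 7719 nt in mesoderm. The libraries also differed in this measure over all transcripts: 3298 and 3114 nt in hPSC, 4406 and 4650 nt in ectoderm cells, 3073 and 2975 nt in endoderm, and 3765 and 3840 nt in mesoderm. Transcripts over 10 kb that match the reference summed to 7208 and 6476 CPM in hPSC and to 17242 and 18838 CPM in ectoderm cells. Intronic transcripts took 1.65% and 1.58% of the reads in hPSC and 2.77% and 3.10% in ectoderm cells. The part of library length and depth in the differences between groups was not tested.

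Few members were abundant enough to test. Differences from hPSC were tested with edgeR's quasi-likelihood test over 12440 transcripts, with Benjamini-Hochberg adjustment over all of them and a call at an adjusted p under 0.05. Of the 1154 members with reads, 40 passed the filter on low counts, which keeps a transcript that is abundant in any 1 group, so the counts here describe these 40 and not the members as a whole. In ectoderm 21 members fell (22.1% of all tested transcripts did) and 7 rose (23.8% of all). In endoderm 18 fell (13.6% of all) and 7 rose (13.1% of all). In mesoderm 23 fell (16.3% of all) and 2 rose (16.5% of all). The median log2 fold change of the 40 was -2.78 in ectoderm, -1.07 in endoderm and -4.38 in mesoderm, beside 0.01, -0.17 and 0.04 over all tested transcripts. With members at 0 set to the floor of 3 counts over the group, the median log2 ratio of pooled levels was -2.99 in ectoderm (37 members with a ratio), -2.05 in endoderm (37) and -3.35 in mesoderm (36). These medians belong to the 40 members: leaving out hPSC repeat 2 let 66 members pass the filter, and their medians were -0.43, 0 and -0.92, while the same 40 gave -3.52, -1.12 and -3.99. With no filter all 1154 members gave 1.44, 0 and 0. Summing the members of each locus, 43 loci were tested. In ectoderm 24 loci fell (25.3% of all loci tested) and 7 rose (24.1%), in endoderm 19 fell (14.1%) and 7 rose (13.6%), and in mesoderm 25 fell (18.5%) and 3 rose (17.1%). Falls were not particular to single-exon members. Of 69 tested spliced intergenic transcripts, 57 fell in ectoderm, 53 in endoderm and 55 in mesoderm, while 2, 8 and 0 rose. Of 155 tested single-exon transcripts that match the reference, 40, 21 and 31 fell and 26, 19 and 25 rose. All 3 comparisons share the hPSC libraries.

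**Figure D2:**
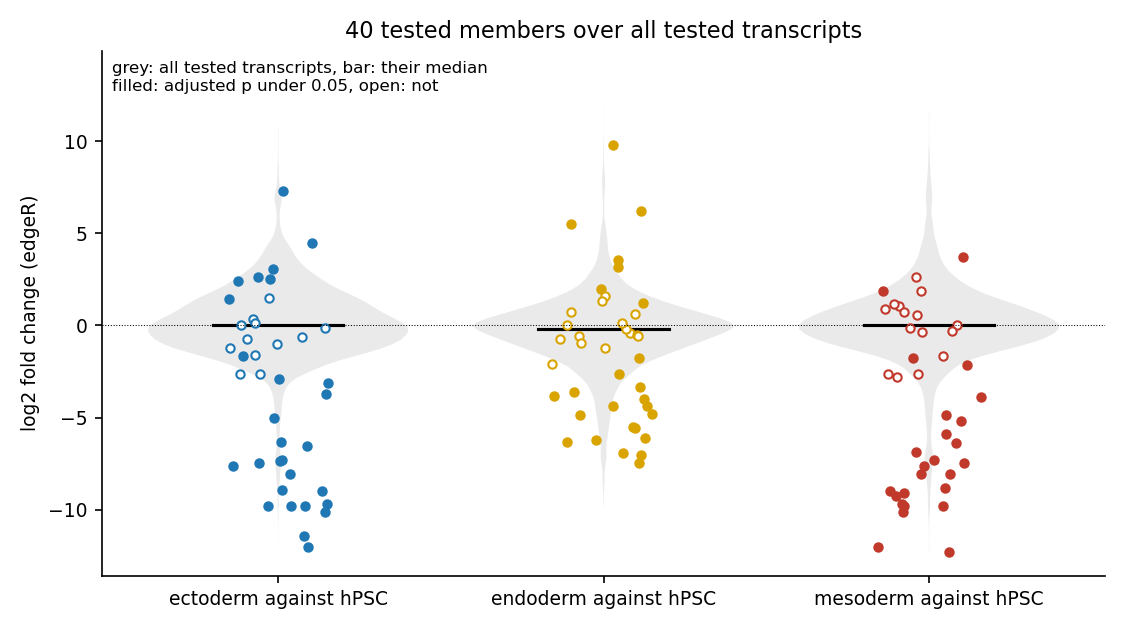
The log2 fold change against hPSC (vertical axis) of the 40 tested members (points, filled where the adjusted p was under 0.05) over the distribution of all 12440 tested transcripts (grey, with a bar at the median) for each layer. Most filled points lie below 0 in every layer, with 7 above it in ectoderm, 7 in endoderm and 2 in mesoderm.

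Many of the tested members fell in all 3 layers. Of 24 members called lower in any layer, 17 were called lower in all 3, in 17 loci on 11 chromosomes. Among all tested transcripts, 3.91% were called lower in all 3 layers. DESeq2 called 13 of the 17 so. Their median length was 5480 nt (range 3711 to 7189), and 11 of them measured 5 to 6.5 kb, out of 12 tested members of that size. A member can pass the filter through its hPSC level alone, so the 11 of 12 describes tested members only. The 17 lay on both strands, 9 on the plus strand, and 7 were over 50 kb from any GENCODE 29 gene. Their summed level was 3314 and 4482 CPM in hPSC, 5.08 and 10.3 in ectoderm cells, 95.6 and 85.3 in endoderm, and 5.65 and 1.98 in mesoderm. The endoderm sums were above those of both other layers. The 17 held 67.3% of all member counts of the hPSC libraries. Without the 11, the other 156 members of 5 to 6.5 kb summed to 218 and 210 CPM in hPSC and 480 and 514 CPM in ectoderm cells. Between 3 and 5 kb, 4 members of the 17 gave 1227 and 1701 CPM in hPSC. The other 255 gave 377 and 365 CPM there against 655 and 682 in ectoderm cells. The members left out were picked by their higher level in hPSC, so leaving them out lowers hPSC by design. No such removal was made for ectoderm, so these splits only show where the hPSC counts lay.

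**Figure D3:**
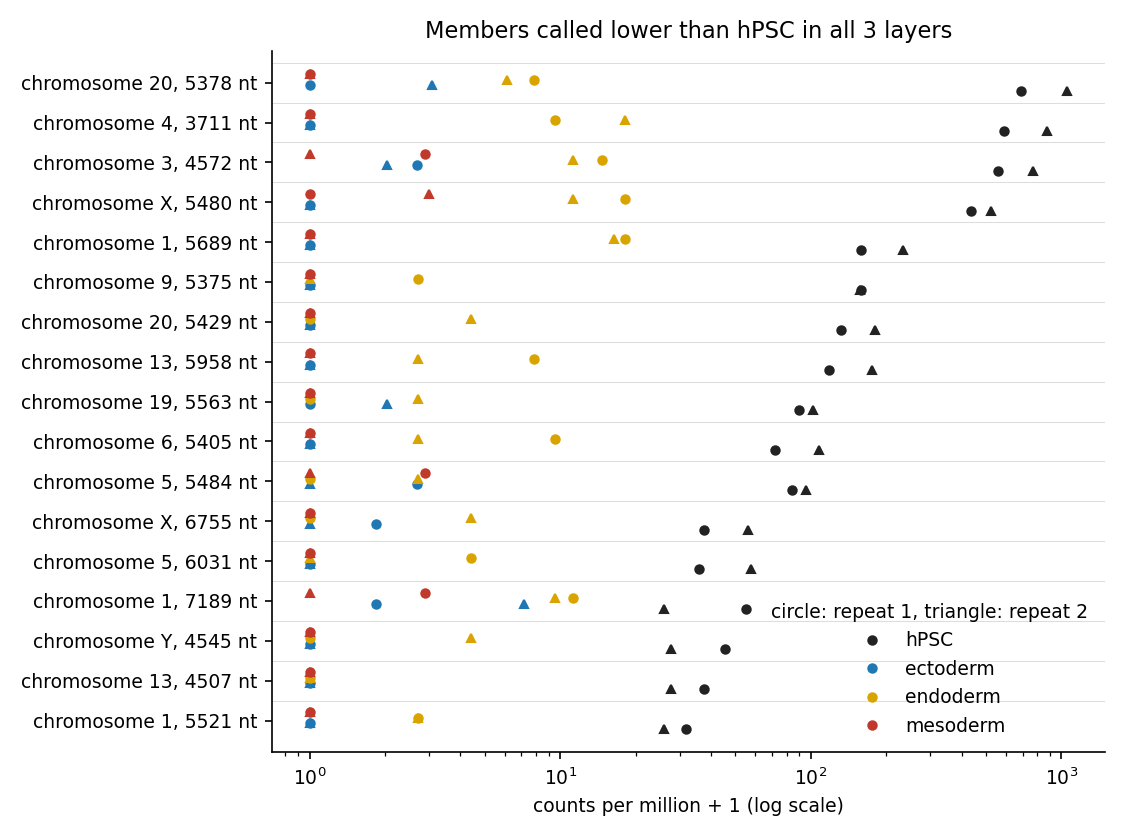
CPM plus 1 on a log scale (horizontal axis) in each library for the 17 members called lower in all 3 layers (rows, named by chromosome and length and ordered by mean hPSC level). In every row both hPSC points lie to the right of the 6 others, and the endoderm points are usually the next.

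Of the 7 members of this group over 50 kb from a gene, 3 are given here. The member at chrX:114467017-114472496 (plus strand, 5480 nt, hEDT_00095138) had 225 and 294 reads in hPSC, none in ectoderm cells, 10 and 6 in endoderm and 0 and 1 in mesoderm. The hPSC libraries stood apart from the rest, and this gave a level at least 344-fold lower in ectoderm, where a floor of 3 counts over the group was used. In endoderm its log2 fold change was -4.85 ± 0.44 (SE), with an adjusted p of 3.5e-06 by edgeR. Its nearest coding gene, HTR2C, a serotonin receptor gene, lay 111582 bases away on the same strand and had no reads in hPSC, 7 and 6 in ectoderm cells. The member at chr20:12754170-12759598 (plus strand, 5429 nt, hEDT_00058074) had 68 and 101 reads in hPSC, 0 and 2 in endoderm and none in the other layers, at least 112-fold lower in ectoderm and at least 53.9-fold lower in mesoderm. The member at chr13:55655955-55660461 (minus strand, 4507 nt, hEDT_00024454) had 19 and 15 counts in hPSC and no count elsewhere, so it was at least 12.3-fold lower in endoderm.

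Both members described next lie closer to a gene, on its opposite strand. The member at chr1:223024118-223029806 (minus strand, 5689 nt, hEDT_00003282) had 82 and 131 reads in hPSC, 10 and 9 in endoderm and none in the ectoderm and mesoderm libraries. It was at least 141-fold lower in ectoderm and fell in endoderm by 3.33 ± 0.44 (SE) on the log2 scale (adjusted p = 9.4e-05, edgeR). DISP1, which encodes a protein needed to release hedgehog ligands, lay 18123 bases away on the other strand and had 7 and 8 reads in hPSC and 37 and 27 in ectoderm cells. The member at chr9:93347934-93353308 (plus strand, 5375 nt, hEDT_00090840) had 82 and 88 reads in hPSC and 1 count in the other 6 libraries together, in endoderm. It lay 1520 bases from C9orf129 on the other strand, and its endoderm log2 fold change was -7.03 ± 0.69 (SE), with an adjusted p of 1e-05 by edgeR.

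The members with the most reads in hPSC belong to the same group and set its sum. The member at chr20:40269399-40274776 (hEDT_00058276) had 359 and 590 reads in hPSC and 9 in the other 6 libraries. That at chr4:179166512-179170222 (hEDT_00070985) had 307 and 493, with 5 and 10 in endoderm and none in the other layers. These 2 also lie over 50 kb from a gene. That at chr3:112418447-112423018 (hEDT_00065702) had 288 and 433, with 8 and 6 in endoderm. In each of the 3, repeat 2 of hPSC was above repeat 1 and both were far above every other library. Without these 3 the hPSC share of the reads was 0.353% ± 0.0304 (SD, n = 2). That of ectoderm on the same base was 0.367% ± 0.0154, and the spreads overlap. The 3 were picked by their counts, which lay mostly in hPSC, so leaving them out lowers hPSC by design. For comparison, 6 reference genes known for HERVH sequence in their transcripts (ESRG, LINC-ROR, LINC00458, LINC01108, HHLA1 and ABHD12B) summed to 2320 and 2861 CPM in hPSC, 87.2 and 98.2 in ectoderm cells, 114 and 76.8 in endoderm and 0 and 5.95 in mesoderm. ESRG, a long noncoding RNA of pluripotent cells, held 1158 and 1551 of their counts in hPSC. Whether members and these genes share sequence was not tested.

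Members with their highest level in ectoderm had the greatest median length. Of the 525 members with 10 or more counts, 302 had their highest level in ectoderm, 88 in hPSC, 72 in endoderm and 63 in mesoderm. Their median lengths were 8500 nt, 3856.5 nt, 3079.5 nt and 5801 nt. Of 141 such members over 10 kb, 125 were highest in ectoderm, and in 92 both ectoderm libraries were above the other 6. The same held for 49.6% of all transcripts over 10 kb with 10 or more counts, so long transcripts of every kind were often highest in ectoderm. Both hPSC libraries were above the other 6 in 3 of the 141 (1.76% of all), both endoderm libraries in 1 (1.35%) and both mesoderm libraries in 4 (7.53%). Over all lengths, both ectoderm libraries were above the other 6 in 185 of the 525 members (24.0% of all transcripts with 10 or more counts), both hPSC libraries in 42 (6.17% of all), both endoderm libraries in 36 (7.26%) and both mesoderm libraries in 25 (9.87%). The assembly made from the ectoderm libraries alone held 706 intergenic single-exon transcripts, 147 of them over 10 kb, while the hPSC assembly held 211 with 3 over 10 kb, the endoderm assembly 223 with 5, and the mesoderm assembly 129 with 5. The ectoderm libraries were also the deepest, so members reach 10 counts most easily through them. The share of all transcripts with their highest level in each group was not computed. The 302 of 525 and 125 of 141 therefore have no such share beside them.

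Of the 7 members that rose in ectoderm, 6 were over 10 kb and 5 lay on chromosome 2. The member at chr2:22668159-22695029 (minus strand, 26871 nt, hEDT_00057030) had 37 and 32 counts in ectoderm, 1 in mesoderm and none in hPSC or endoderm, so it was at least 11.6-fold higher in ectoderm than in hPSC. The nearest gene, LINC01884, lay 129871 bases away. The member at chr2:185553644-185584439 (plus strand, 30796 nt, hEDT_00056584) had 1 and 0 reads in hPSC, 37 and 24 in ectoderm cells, 1 and 2 in endoderm and 5 and 11 in mesoderm. It rose by 4.46 ± 0.88 (SE) on the log2 scale in ectoderm (adjusted p = 0.00086, edgeR) and by 3.73 ± 1.03 in mesoderm (adjusted p = 0.011, edgeR). The mesoderm call was lost without mesoderm repeat 2 (adjusted p = 0.12) and with DESeq2 (adjusted p = 0.095). The longest member of all, at chr2:185616997-185648601 (31605 nt, hEDT_00056586), lay further along the same strand and did not pass the test, with 4 and 2 counts in hPSC and 19 and 21 in ectoderm cells.

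The other risers of high level showed smaller differences. The member at chr2:173542697-173571275 (plus strand, 28579 nt, hEDT_00056512) had 4 and 4 reads in hPSC, 49 and 60 in ectoderm cells, 3 and 0 in endoderm and 15 and 16 in mesoderm. It rose by 2.54 ± 0.56 (SE) in ectoderm (adjusted p = 0.0019, edgeR). Its rise in mesoderm, 1.89 ± 0.63 with an adjusted p of 0.029, was lost with DESeq2, with no filter and without either mesoderm library. The members at chr4:24339286-24357909 (18624 nt, hEDT_00072336) and at chr5:71157817-71184548 (26732 nt, hEDT_00077219) rose by 2.63 ± 0.61 and 3.09 ± 0.72 in ectoderm (adjusted p = 0.0028 for both, edgeR). The first overlaps the RefSeq span of PPARGC1A. Both calls were lost with DESeq2 (adjusted p = 0.075 and 0.098). The second was also lost without ectoderm repeat 2 (adjusted p = 0.055). The 1 riser under 10 kb, at chr2:45062464-45065586 (minus strand, 3123 nt, hEDT_00057148), had 4 and 9 reads in hPSC and 47 and 37 in ectoderm cells and lay 53034 bases from SIX2, a homeobox gene that itself had 0 and 1 counts in ectoderm. Its rise of 1.45 ± 0.50 (adjusted p = 0.026, edgeR) was lost in 5 alternatives, among them without hPSC repeat 1 (0.91, adjusted p = 0.16) and without either ectoderm library.

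Many long members lay in rows on 1 strand. Joining members on the same strand with gaps of at most 50 kb gave 49 runs of 3 or more loci, which held 260 members in 250 loci and 85 of the 159 members over 10 kb. Runs spanned 11666 to 281994 bases, with a median of 82035. The summed length of the members was 48.5% of the span in the median run. Of the 260, 256 were in the assembly of 1 group only. In 42 runs more members were highest in ectoderm than in any other group, in 4 in mesoderm and in 2 in hPSC, and 1 run was tied. Over all runs the level summed to 210 and 249 CPM in hPSC, 1295 and 1403 in ectoderm cells, 220 and 206 in endoderm, and 501 and 675 in mesoderm. In 37 runs both ectoderm libraries were above the other 6, in 3 both mesoderm libraries were, and in 1 both hPSC libraries were. Among all transcripts with 10 or more counts, the shares were 24.0% for ectoderm, 9.87% for mesoderm and 6.17% for hPSC. Over 10 kb the ectoderm share was 49.6%. These are shares of single transcripts, and none was computed for runs of other transcripts. Of the 1164 members, 680 were named after the ectoderm assembly, whose libraries were the deepest. Members of a run may be pieces of 1 longer RNA, so they are not independent.

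**Figure D4:**
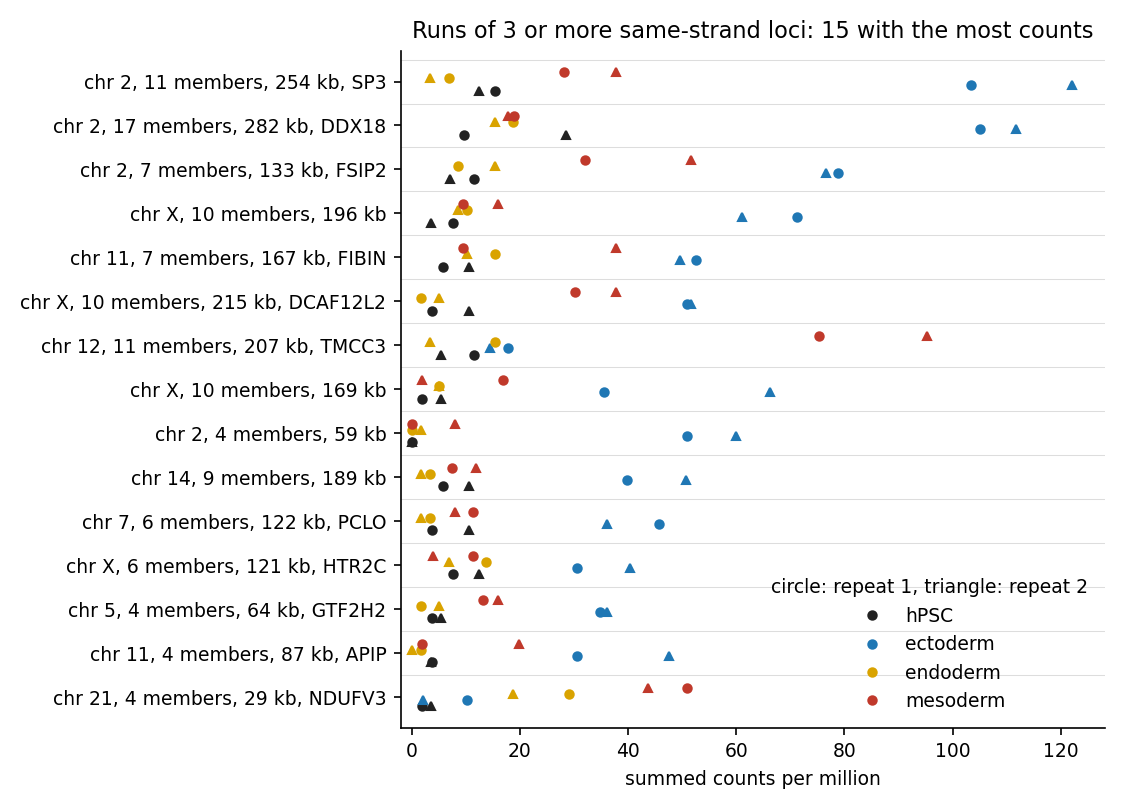
Summed CPM (horizontal axis) in each library for the 15 runs with the most counts (rows, named by chromosome, number of members, span and the nearest coding gene where it lies within 500 kb). Both ectoderm points lie to the right of all others in 13 rows, and mesoderm points do so for the runs next to TMCC3 and NDUFV3.

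The run with the most counts, at chr2:173532828-173786587 on the plus strand, held 11 members over 253760 bases. It had 8 and 7 reads in hPSC, 122 and 118 in ectoderm cells, 4 and 2 in endoderm and 15 and 19 in mesoderm. Pooled over repeats, its ectoderm level was 8.05-fold that of hPSC (95% interval 4.79 to 14.6, counting error only). SP3, which encodes a zinc finger transcription factor, lay 119872 bases away on the other strand, with 9 and 5 counts in hPSC and 155 and 109 in ectoderm cells. The run with the most members, 17 over 281994 bases at chr2:117324393-117606386 on the minus strand, had 5 and 16 reads in hPSC and 124 and 108 in ectoderm cells, and all 17 members were highest in ectoderm. DDX18, which encodes an RNA helicase, lay 208264 bases from its 5′ side on the other strand and had 16 and 12 reads in hPSC and 112 and 94 in ectoderm cells.

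A run of the mesoderm libraries, which carry the amnion and trophoblast markers described above, lay next to a gene that was also highest there. It held 11 members over 207242 bases at chr12:94651099-94858340 on the minus strand and ended 537 bases before the start of TMCC3, a gene for a membrane protein of the endoplasmic reticulum, on the same strand. The run had 6 and 3 reads in hPSC, 21 and 14 in ectoderm cells, 9 and 2 in endoderm and 40 and 48 in mesoderm. All 11 members were highest in mesoderm. TMCC3 had 6 and 4 reads in hPSC, 17 and 21 in ectoderm cells, 4 and 2 in endoderm and 63 and 56 in mesoderm. The best read member, at chr12:94806377-94817807 (11431 nt, hEDT_00022381), had 9 and 13 counts in mesoderm, 3 and 4 in ectoderm cells and none in hPSC, at least 7.66-fold higher in mesoderm.

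Other mesoderm members were few and of low count. A run of 4 members at chr21:42929131-42958142 on the plus strand had 1 and 2 reads in hPSC, 12 and 2 in ectoderm cells, 17 and 11 in endoderm and 27 and 22 in mesoderm. The member at its 5′ end, chr21:42929131-42935861 (6731 nt, hEDT_00060910), lay 3485 bases from ERVH48-1, a gene derived from a retroviral envelope, on the other strand. ERVH48-1 had 11 and 24 reads in hPSC, 6 and 6 in ectoderm cells, 13 and 16 in endoderm and 51 and 55 in mesoderm. The member at chr3:14225277-14233426 (8150 nt, hEDT_00067027) had 7 and 14 counts in mesoderm, against 0 and 1 in hPSC, 1 and 2 in ectoderm cells and none in endoderm. That at chr1:89953772-89964192 (10421 nt, hEDT_00005479) had 9 and 7 counts in mesoderm and 2 and 1 in hPSC. That at chr1:160985712-160991824 (6113 nt, hEDT_00006641), which lay 3387 bases after F11R on the same strand, had 12 and 10 counts in mesoderm and 6 and 4 in hPSC, and did not pass the test (adjusted p = 0.22, edgeR). No member with 10 or more counts was read in mesoderm alone, as 0.176% of all such transcripts were.

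Several members were read almost only in endoderm. The member at chr1:94570790-94572488 (minus strand, 1699 nt, hEDT_00004645), which overlaps the span that RefSeq gives LOC105378861, had 55 and 96 counts in endoderm. It had none in any other library, so it was at least 46.5-fold higher than in hPSC. The call (adjusted p = 1.8e-05, edgeR) was lost with DESeq2 (adjusted p = 0.22). F3, the tissue factor gene, lay 28990 bases away on the same strand and had 1 and 2 reads in hPSC, 4 and 4 in ectoderm cells, 11 and 11 in endoderm and 7 and 8 in mesoderm, so it was read in every group. The member at chr8:54216130-54228420 (minus strand, 12291 nt, hEDT_00088831) had 50 and 30 counts in endoderm and 1 in hPSC, and rose by 6.23 ± 0.80 (SE) on the log2 scale (adjusted p = 8.4e-05, edgeR). The member at chr3:90083280-90086830 (plus strand, 3551 nt, hEDT_00066280) had 27 and 21 counts in endoderm and 1 in hPSC, and rose by 5.50 ± 0.79 (adjusted p = 0.00021, edgeR). Of the 525 members with 10 or more counts, 5 were read in endoderm alone (0.176% of all transcripts with 10 or more counts), 4 in ectoderm alone (0.682%) and 1 in hPSC alone (0.22%).

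A short endoderm member lay at the start of a gene of sterol synthesis. The member at chr1:155308056-155308367 (minus strand, 312 nt, hEDT_00002951) had 2 and 9 reads in hPSC, 1 and 2 in ectoderm cells, 33 and 56 in endoderm and none in mesoderm. A longer form of the locus (513 nt, hEDT_00009200) had 2 and 6, 4 and 2, 30 and 57, and 0 and 1. They began 381 and 180 bases before the start of FDPS on the other strand, and overlap the span that RefSeq gives PKLR. FDPS encodes farnesyl diphosphate synthase and had 98 and 158 reads in hPSC, 81 and 58 in ectoderm cells, 407 and 515 in endoderm and 59 and 42 in mesoderm. The short form rose in endoderm by 3.15 ± 0.57 (SE) on the log2 scale (adjusted p = 0.00092, edgeR) and fell in ectoderm and mesoderm (adjusted p = 0.020 and 0.018, edgeR). Both falls lost their call without hPSC repeat 2 (adjusted p = 0.41 and 0.12) and without either library of the layer. The 2 forms overlap and share the end of the locus, so their counts are not independent.

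Members opposite a gene start were shorter than the members as a whole. The 116 members that start within 1 kb of an opposite-strand GENCODE 29 start faced 108 genes. The median distance was 149 bases (quartiles 74.75 and 303), and 77 of the 116 lay within 250 bases. The rule caps this distance at 1 kb, and no expected distance was computed. Their median length was 2369.5 nt, against 4352.5 nt over all members. Of the 116, 17 (14.7%) were in the assemblies of 2 or more groups, against 6.44% of all members. Their sum was 212 and 219 CPM in hPSC, 224 and 191 in ectoderm cells, 319 and 406 in endoderm and 158 and 200 in mesoderm. The endoderm libraries were above the other 6, and the 2 FDPS forms gave 63 and 113 of the 187 and 238 counts there.

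**Figure D5:**
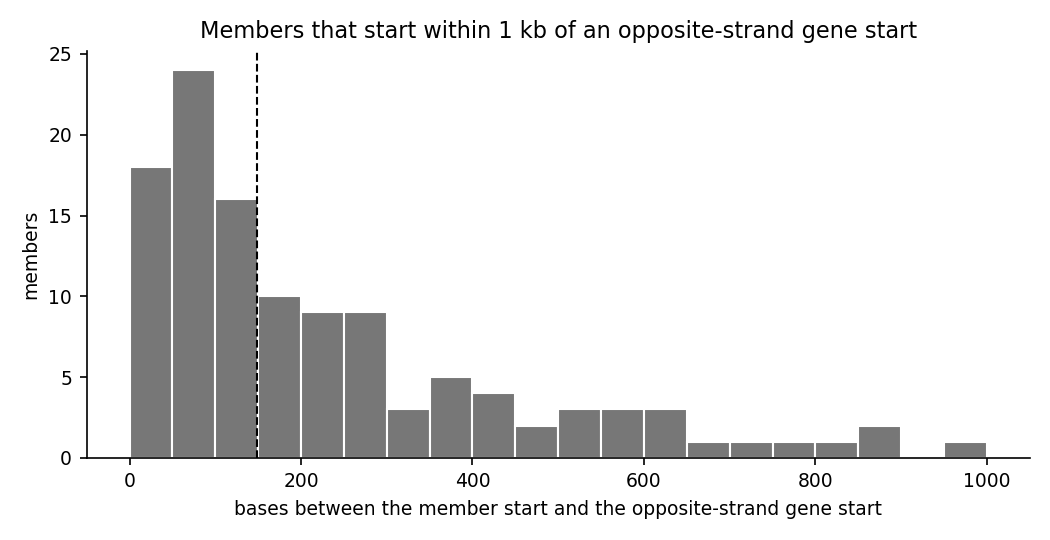
Number of members (vertical axis) by the distance in bases from the member's start to the start of the gene on the opposite strand (horizontal axis), for the 116 members within 1 kb. The dashed line marks the median of 149 bases.

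The gene and its opposite member did not always share their order over groups. The SFRP2 member (chr4:153789188-153794870, 5683 nt, hEDT_00072772) had 12 and 8 counts in ectoderm and none in the other 6 libraries. SFRP2 itself had 317 and 167 reads in hPSC, 302 and 180 in ectoderm cells, 30 and 34 in endoderm and 7 and 3 in mesoderm. In CPM it had 610 and 297 in hPSC and 256 and 186 in ectoderm cells. The SOWAHB member (chr4:76898278-76900879, 2602 nt, hEDT_00071712) had 3 and 5 counts in mesoderm, 2 in ectoderm and 1 in endoderm. SOWAHB had 4 and 5 counts in mesoderm and 1 in the other 6 libraries. The LSM8 member (chr7:118181580-118184006, 2427 nt, hEDT_00084736) had 1 and 0 reads in hPSC, 14 and 6 in ectoderm cells, 2 and 1 in endoderm and 3 and 4 in mesoderm, and LSM8 had 6 and 9, 34 and 34, 9 and 6, and 8 and 13. The ZNF79 member (chr9:127421425-127424357, 2933 nt, hEDT_00091744), which all 4 assemblies held, had 2 to 6 counts in every library. None of these members passed the filter for the test.

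RefSeq promoter windows on the opposite strand held the start of 59 members, in windows of 55 genes, and in every pair the member began before the gene's start. The rule for members favours this order, since it takes only transcripts in no reference gene. The median distance over the 60 pairs was 109.5 bases, in windows that reach only 250 bases before the gene's start. Windows of genes on the member's own strand held the start of 22 members, and windows on either strand that of 68. The 55 windows had a median GC content of 70.0% and 35 CpG, beside 58.3% and 14 over all 27305 RefSeq promoter windows. GGGCGG or its reverse complement was in 44 of the 55 and in 44.6% of all windows. CGGAAG was in 38.2% and 19.9%, CCAAT in 32.7% and 35.7%, and TATAAA in 1.82% and 12.0%, each searched on both strands, with matches of different motifs allowed to overlap. Of the printed windows, those of ZNF79, DOCK1, SFRP2 and SOWAHB hold GGGCGG, those of LSM8, ZNF79 and SFRP2 hold CCAAT, and those of LSM8 and ZNF79 hold CGGAAG. These matches describe the letters and were not tested as sites.

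Some members lay in ribosomal DNA, which is multicopy. The 21 members on the ribosomal DNA scaffolds summed to 139 and 58.7 CPM in hPSC, 34.7 and 45.5 in ectoderm cells, 93.9 and 174 in endoderm and 58.4 and 59.5 in mesoderm, and the hPSC libraries overlapped with endoderm and mesoderm. One of the loci with the most members, 3, was on KI270733.1, with 20 and 6 counts in hPSC. How reads that fit several copies were counted is not given in the sources used here, so these values are uncertain. Outside ribosomal DNA, the locus with the most members, 4, at chr7:102525952-102534610 on the minus strand, had 28 and 12 counts in ectoderm and 6 and 10 in hPSC. In CPM this was 23.7 and 12.4 in ectoderm and 11.6 and 17.8 in hPSC, so the 2 groups overlapped. The third such locus, at chrX:126408444-126427735, had 16 and 19 counts in ectoderm and 2 and 3 in hPSC.

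The 2 mitochondrial members lie on the minus strand at both ends of the chromosome's numbering, at chrM:16024-16569 (hEDT_00094751) and chrM:1-408 (hEDT_00094748), and so are neighbours on the circle. The first had 5 and 22 reads in hPSC, 45 and 35 in ectoderm cells, 36 and 61 in endoderm and 8 and 15 in mesoderm. The second had 10 and 18, 22 and 17, 29 and 31, and 22 and 21. In endoderm they rose by 1.99 ± 0.53 and 1.25 ± 0.42 (SE) on the log2 scale (adjusted p = 0.011 and 0.036, edgeR). The first call was lost without endoderm repeat 2 (adjusted p = 0.11), and the second without hPSC repeat 1 (0.82, adjusted p = 0.19), without either endoderm library and with DESeq2, among others. All mitochondrial transcripts took 2.06% and 4.50% of the reads in hPSC and 2.68% and 3.46% in endoderm, so these libraries overlap in that total. Single mitochondrial genes differed. MT-ND1 had 110 and 190 CPM in hPSC and 321 and 382 in endoderm. MT-CYB had 67.4 and 183 in hPSC and 172 and 210 in endoderm, so its libraries overlapped.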

How the data were processed

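The authors deposited counts per assembled transcript for 8 PacBio Sequel II libraries, which were used as whole raw counts. The 2 deposited endoderm columns were entered under the unit expected counts, hold whole numbers and were not rounded. The submitters' processing notes name minimap2 and StringTie without versions, and GRCh38. How strand was set for unspliced reads, and how shared reads were counted, is not given in the sources used here. Members were placed against GENCODE 29 and the RefSeq gene tables on GRCh38. The deposited CPM tables were not used.

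Counts were tested in edgeR 4.0.16 (R 4.3.3) with TMM factors, filterByExpr at a minimum count of 10 and 1 quasi-likelihood fit over all 8 libraries, two-sided, with no term for the repeat number. SE values are the log2 fold change over the root of F. Folds against a group at 0 use a floor of 3 counts over the group, and 95% intervals of pooled ratios are exact conditional binomial. Sums and shares have no test. In simulated counts with 200 transcripts changed 4-fold, the test recovered 64.5% for ectoderm (of 10115 transcripts), 62% for endoderm (of 10093) and 45% for mesoderm (of 10032). Alternatives were DESeq2 1.42.0, RLE factors, no filter, 2 groups alone, a repeat term, and leaving out each library.

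The members, lists and rules were chosen with earlier results of these data known. Named by locus were the 5 members with the highest mean CPM per group, the 3 loci with the most members, the 2 longest members, and per layer the 3 highest and 3 lowest fold changes among calls. Runs, opposite-strand pairs and other members were named after their values were seen. Sequence features of the members were not analysed here.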

Additional observations from a re-analysis of the deposited data

Results flagged for a closer look

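For 7 named members, both libraries of 1 layer were above both hPSC libraries and both of another were below them. These differences between layers were not tested, and most rest on a few counts. Values are mean CPM of the higher layer. The member opposite FDPS (hEDT_00002951) had 75.9 CPM in endoderm, 9.93 in hPSC and less in ectoderm and mesoderm. The chr2:173542697-173571275 member (hEDT_00056512) had 51.8 in ectoderm and 30.0 in mesoderm, with 7.41 in hPSC and 2.56 in endoderm. The mitochondrial member at chrM:1-408 (hEDT_00094748) had 51.2 in endoderm and 41.6 in mesoderm, with 25.6 in hPSC and 18.1 in ectoderm. The member next to ERVH48-1 (hEDT_00060910) had 9.39 in endoderm and 16.5 in mesoderm, with 1.85 in hPSC and 0.847 in ectoderm. The chr5:71157817-71184548 member (hEDT_00077219) had 20.2 in ectoderm and 7.74 in mesoderm, with 1.85 in hPSC and 0.853 in endoderm. The best read member of the chrX:126408444-126427735 locus (hEDT_00097892) had 10.7 in ectoderm and 6.74 in mesoderm, with 3.70 in hPSC and 1.71 in endoderm. The chr1:89953772-89964192 member (hEDT_00005479) had 15.4 in mesoderm, with 2.82 in hPSC and 0.853 in endoderm.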

How the results depend on the processing

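With no filter on low counts, 90 of 1154 members were called in ectoderm (36 lower, 54 higher) and 39 in endoderm (21 lower, 18 higher), against 28 and 25 with it; more members are then tested. In mesoderm that setting called 36 against 25. Other settings kept the counts within 1.5 times: DESeq2 called 20, 18 and 18 in ectoderm, endoderm and mesoderm. The split moved without hPSC repeat 2, with 15 members higher in ectoderm and 14 in endoderm, and no member rose in mesoderm with DESeq2 or without mesoderm repeat 2. Leaving out 1 library gave 28 to 37 calls in ectoderm, 21 to 34 in endoderm and 19 to 33 in mesoderm, and 29 to 37, 21 to 35 and 24 to 33 loci.

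The repeat numbers did not pair the libraries: deviations of same-numbered libraries correlated at -0.05 to 0.16 over 6 pairs of groups. A fit with the replicate block called 27, 24 and 25 members and 30, 26 and 27 loci.

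The shares depended on which members were summed. With the 75 members held by at least 2 group assemblies they were 0.349% (hPSC), 0.0301% (ectoderm), 0.0572% (endoderm) and 0.0257% (mesoderm). With the 768 members at least 5000 bases from a gene they were 0.477%, 0.267%, 0.136% and 0.122%. Without the 3 members with the most counts hPSC had 0.353%. The median log2 fold change of all transcripts in ectoderm moved from 0.01 to 0.11 with RLE factors, 0.28 without hPSC repeat 1 and 0.60 with no filter. That of the members moved from -2.78 to -2.71, -1.14 (69 members) and 1.44 (1154 members), and over the 40 alone to -2.71, -2.24 and -2.63. Of the results of 21 named tested members, 29 values lost and 2 gained a call under some alternative, and none reversed. With 2 libraries a group and a median of 9 counts, depth limits most members to description.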
